A study of Mus musculus with 96 samples.

Results

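The bone samples of wild-type and Scx-/- mice were compared over all genes. They were the 6 samples with the tissue label bone, 3 per genotype, out of 96 samples from 16 tissues. All mice were 3 weeks old, the wild-type group is labelled WT, and the other group lacks a working copy of Scx on both chromosomes in the whole body, with no allele named. The organs were taken whole at necropsy and frozen, so a sample holds bone, marrow and whatever tissue stayed attached, and neither the skeletal element nor the strain is given in the sources used here. The labels do not say that the 3 samples of a genotype came from 3 separate mice, although sex-linked counts differed within both genotypes, and p-values then measure only the spread between these samples. The comparison asks which genes differ in bone when Scx is absent, and it covered 12344 of the 41575 genes in the table, those with at least 1 count in at least 1 of the 6 samples.

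Scx encodes scleraxis, a basic helix-loop-helix transcription factor that marks tendon and ligament progenitors and drives their collagen matrix genes. Bone matrix is made by osteoblasts, which secrete type I collagen that is modified in the endoplasmic reticulum, trimmed outside the cell and then mineralized, and it is resorbed by osteoclasts, which descend from blood cells. In young mice the marrow inside the bone also makes red cells, granulocytes and lymphocytes, and tendons insert on the bone surface.

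The upstream sequences of 3 genes are shown as examples of groups described below: Pcolce for collagen processing, Thbs4 for tendon and Alas2 for red cell formation. Each is read from 5′ to 3′ on the strand of the gene, from RefSeq's table of promoters on GRCm38.p6, and ends before the first annotated exon that the table's window reaches. Capitals mark CANNTG, the E-box letters that basic helix-loop-helix factors recognise, in Pcolce and Thbs4, and GATAA on either strand, the letters of GATA factors, in Alas2. The stretches are chr5:137611488-137611654 on the minus strand, chr13:92794819-92795068 on the minus strand and chrX:150547167-150547374 on the plus strand.
Pcolce: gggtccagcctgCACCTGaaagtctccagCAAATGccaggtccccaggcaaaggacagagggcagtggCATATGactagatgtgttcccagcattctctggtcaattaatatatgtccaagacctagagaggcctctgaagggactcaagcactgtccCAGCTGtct
Thbs4: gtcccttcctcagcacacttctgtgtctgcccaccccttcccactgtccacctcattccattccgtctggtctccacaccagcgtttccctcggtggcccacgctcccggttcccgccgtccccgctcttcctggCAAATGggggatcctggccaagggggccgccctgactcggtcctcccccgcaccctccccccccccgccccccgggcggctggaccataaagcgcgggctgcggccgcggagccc
Alas2: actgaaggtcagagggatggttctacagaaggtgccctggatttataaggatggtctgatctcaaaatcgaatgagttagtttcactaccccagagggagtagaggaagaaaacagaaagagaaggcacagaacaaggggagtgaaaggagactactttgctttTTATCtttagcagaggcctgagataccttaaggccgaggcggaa

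The full window of 250 bases before the RefSeq start held 6 CANNTG matches at Pcolce, of which 4 are in the printed stretch, and 1 at Thbs4. Over 32851 windows of the same length, 66.2% held at least 1 CANNTG. Alas2 held 1 GATAA match, as TTATC on the printed strand, and 22.6% of the windows held at least 1 on either strand. Of the tendon genes, 8 of the 10 with a window held CANNTG and Tnmd, described below, held 0, while it was found in 8 of 14 collagen processing genes, and 11 of 16 erythroid genes held GATAA. These are matches of letters, and nothing in these data measured binding.

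Total counts were 115368, 59763 and 47131 in wild-type samples 1 to 3 and 240564, 124270 and 42272 in Scx-/- samples 1 to 3, with 4015 to 8471 genes detected. Chi-square divided by its degrees of freedom was 9.81 to 14.9 between samples of a genotype (genes with at least 20 counts). That spread is wider than counting error alone, and its sources were not tested. Bone markers fit the label: 12 of 14, including the osteoblast genes Bglap, Ibsp and Sp7 and the osteocyte genes Dmp1 and Phex, were higher in bone than in each of the other 15 tissues. In 4 of the 6 samples the most similar sample of the series was nevertheless a muscle sample. Levels are given as CPM, which are counts divided by a library size scaled with TMM factors and put on a common total, unless a share of the total count is named, and intervals and floors cover counting error only.

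Several samples stood apart in ways that the genotype label does not describe. Scx-/- sample 1 of bone held 3 counts of Xist and 56 of Y-linked genes, and Scx-/- sample 2 held 68 and 0, while in the other 15 tissues the Scx-/- samples numbered 1 held Xist in 15 and those numbered 2 held Y-linked counts in 12. Both are labelled Scx-/-, and both genotypes held samples of each kind. Sex-linked counts do not give the genotype, so whether the mismatch lies within a genotype was not tested. Wild-type sample 2 of every tissue gave 38.5% to 59.6% of its beta-globin counts to the symbols Hbb-bs and Hbb-bt, against at most 0.594% in any other sample. Transcripts of other organs were also present: Kap, Slc34a1 and Umod of the kidney reached 1.52% to 2.51% of their kidney level in bone, with counts in 6 of 6 samples, whereas their means in muscle and cartilage were at most 0.604 CPM (all on raw totals). Heart genes reached 0.534% to 1.30% and bladder genes 1.05% to 1.13% of their own level, and the sample most similar to wild-type sample 1 was a bladder sample. Genes of stomach, intestine and lung reached at most 0.0139% of their own level.

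Scx itself was found in wild-type samples 1 and 2 alone. The gene lies on chromosome 15 at 76457452 to 76459458 on the plus strand, inside the span of Bop1 at 76452989 to 76477277 on the minus strand, and the strand setting of the counting is not given in the sources used here. Its counts were 18, 2 and 0 in the wild-type samples and 0, 0 and 0 in the Scx-/- samples, or 168, 29.9 and 0 CPM against 0. The pooled level was at least 10.7-fold lower in Scx-/- bone, taking 3 counts over the group as the floor. The fitted log2 fold change was -5.74 ± 2.70 (SE), past the study's thresholds, which are an unadjusted p under 0.05 and a change of more than 2-fold. The study applied them in DESeq2, and here they are applied in edgeR, with the DESeq2 calls beside them where they differ. Scx was not past them in DESeq2 (-5.32), nor was it any longer past them in edgeR in 4 of the 6 fits that left out a sample, at -3.67 without wild-type sample 1 and at -5.44, -5.68 and -5.90 without Scx-/- sample 1, 2 or 3. With 18 of its 20 counts in 1 wild-type sample, Scx is a weak check of the labels of single samples.

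No gene reached an adjusted p under 0.05 in the quasi-likelihood test of edgeR after Benjamini-Hochberg adjustment (0.0% of 12344), with 437 genes at an unadjusted p under 0.05 and 1 gene past the adjusted threshold in DESeq2. At the study's thresholds 177 genes were higher in Scx-/- bone (1.43% of those tested) and 256 were lower (2.07%), in all 433. In DESeq2, the tool of the study, 140 were higher (1.13%) and 221 lower (1.79%), and 240 genes were called by both tools. The adjusted p in the quasi-likelihood test of edgeR (Benjamini-Hochberg) was 0.379 for Hbb-bt and 0.636 for the other 432. Among these 433 genes, 347 were at 0 in all samples of one genotype, 210 of them in Scx-/- bone, although its libraries held 407106 counts against 222262. The other 86 had counts in both genotypes, 40 higher and 46 lower. Leaving out wild-type sample 1, 2 or 3 gave 251, 247 and 252 genes in place of 433, and leaving out Scx-/- sample 1 or 2 gave 189 and 163. The groups did not overlap for 362 genes higher in Scx-/- bone (2.93%) and for 288 lower (2.33%). These shares cover genes of all levels, and only 3554 genes had a mean of at least 50 CPM. No share over genes of like level was taken. The median log2 fold change over all genes was 0.08 with TMM scaling, -0.07 with RLE scaling and -0.04 with library totals, a shift of -0.15 and -0.12, so differences of that size have no fixed direction. An exact permutation test of 3 against 3 samples cannot go below 0.1.

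**Figure D1:**
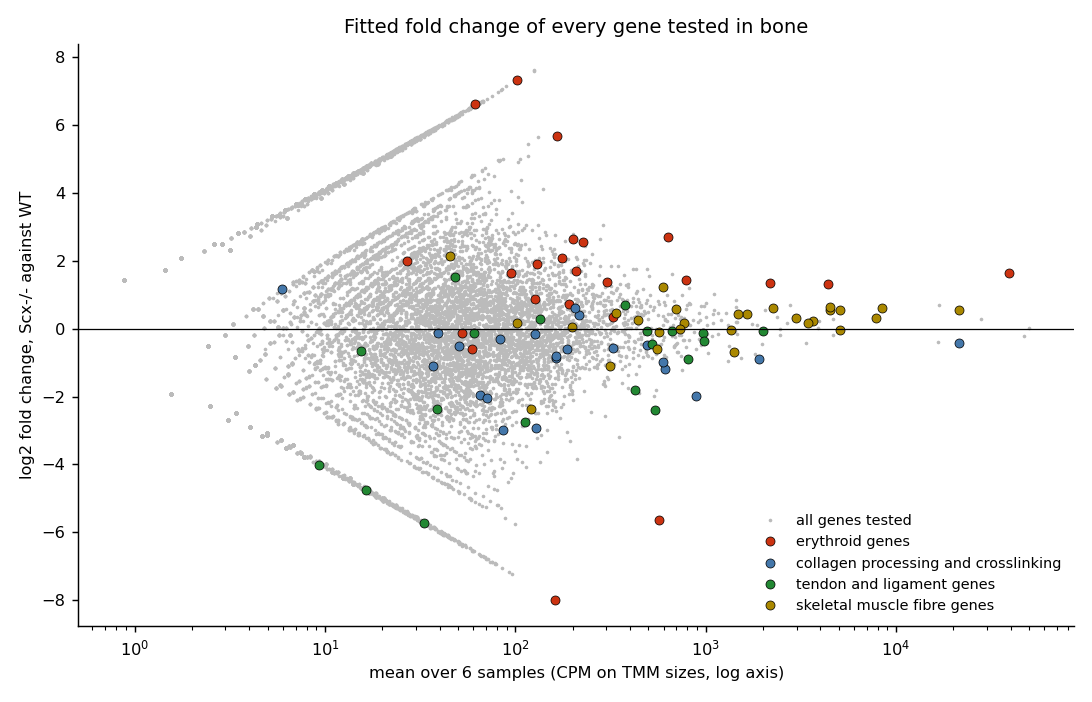
Each point is 1 of the 12344 genes tested, with its mean level over the 6 samples on the horizontal axis (CPM, log axis) and the fitted log2 fold change of Scx-/- against wild-type bone on the vertical axis, and 4 gene lists are coloured. Most erythroid genes lie above 0, most collagen processing genes lie below 0, and most muscle fibre genes lie near 0. The straight edges above and below are genes with no count in one genotype.

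Genes that process collagen took a smaller share of the counts in Scx-/- bone, whether or not Sparc, by far the most abundant of them, was counted. The list of 22 tested genes, which act on procollagen between its synthesis and its crosslinking, took 3.42%, 3.80% and 2.99% of all counts in wild-type bone and 2.47%, 2.25% and 1.62% in Scx-/- bone, so that the groups did not overlap. The mean was 3.40 ± 0.41% against 2.12 ± 0.44% (SD, n = 3). Sparc alone made up 75.1% of the list's counts in wild-type and 82.0% in Scx-/- bone. Without it the list took 0.819%, 0.878% and 0.917% of all counts in wild-type bone and 0.426%, 0.385% and 0.464% in Scx-/- bone, and the groups again did not overlap. Of these genes 19 had a lower and 3 a higher fitted value, with a median log2 fold change of -0.70 against 0.08 over all genes. The sign split was 13 to 9 and the median -0.37 without wild-type sample 1. At the study's thresholds 0 were higher and 1 was lower, against 2.07% lower over all genes, and 4 lay wholly below the wild-type samples, against 2.33% over all genes. In DESeq2 3 were lower, Pcolce, Serpinh1 and P4ha1, a subunit of prolyl 4-hydroxylase, against 1.79% over all genes.

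The gene past the thresholds was Pcolce, the enhancer of the protease that removes the C-propeptide of procollagen, on chromosome 5 at 137605103 to 137613784 on the minus strand. The sequence shown above precedes the RefSeq start, which lies inside this span, downstream of its 5′ end. Pcolce measured 885, 1121 and 2277 CPM in wild-type bone and 756, 251 and 37.9 CPM in Scx-/- bone. Each Scx-/- sample lay below each wild-type sample, and the log2 fold change was -2.00 ± 0.60 (SE), from a mean of 1428 ± 745 CPM to 348 ± 369 CPM (SD, n = 3). It stayed past the thresholds in each of the 6 fits that left out a sample. Its Scx-/- values were themselves spread over more than an order of magnitude, with the lowest in the shallowest library.

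Serpinh1, the chaperone that binds folded procollagen in the endoplasmic reticulum, measured 2394, 2525 and 2501 CPM in wild-type bone and 1938, 1063 and 986 CPM in Scx-/- bone. Its groups did not overlap, with a log2 fold change of -0.89 ± 0.45. Ppib, the prolyl isomerase of the same complex, was chosen after its values were seen and measured 1015, 777 and 752 CPM in wild-type bone and 326, 277 and 531 CPM in Scx-/- bone, again without overlap (-1.18 ± 0.68). Sparc, an abundant collagen-binding glycoprotein of bone and the highest member of the list, overlapped between the genotypes, at 27986, 26060.3 and 19843 CPM against 25852, 20059 and 9292 CPM (-0.42 ± 0.23).

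**Figure D2:**
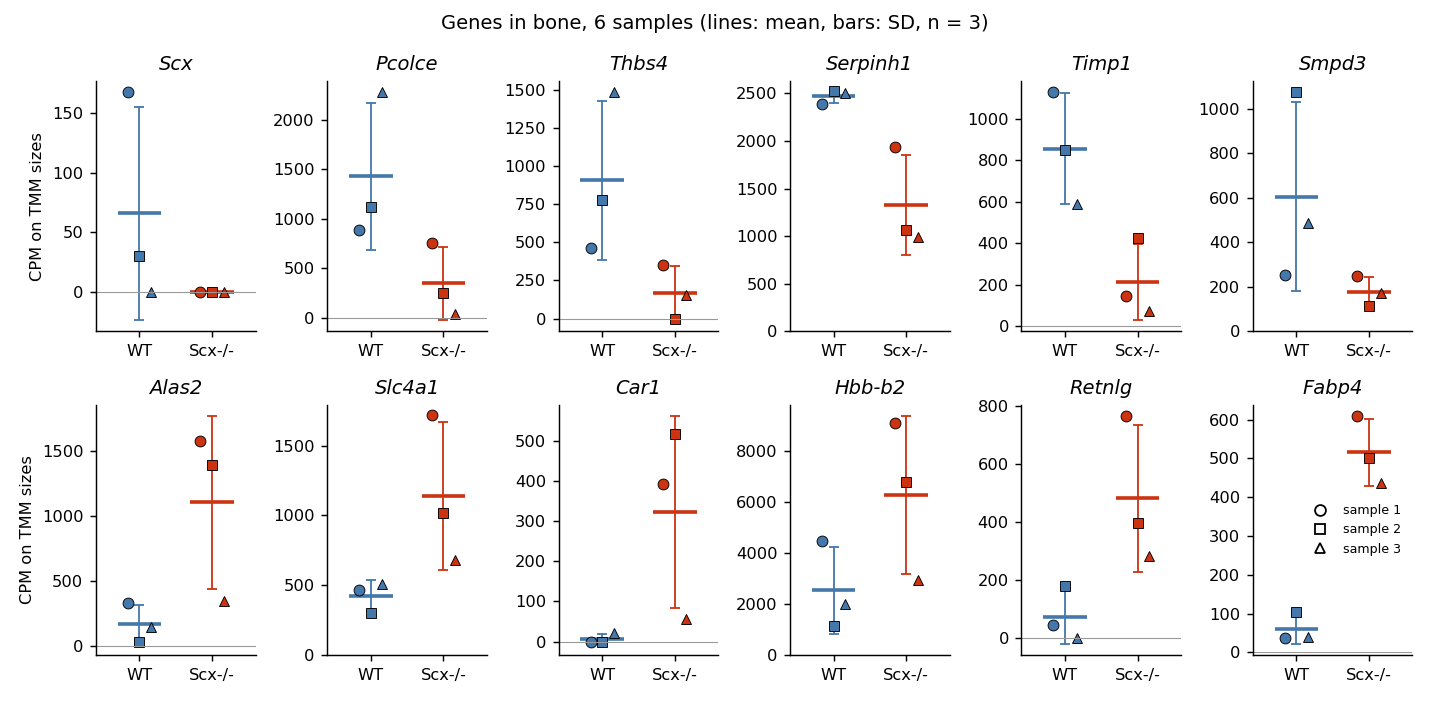
Level of 12 genes in each of the 6 bone samples (CPM on a linear axis), with wild-type samples in blue, Scx-/- samples in red, the mean as a line and the SD as a bar (n = 3). Pcolce, Thbs4, Serpinh1, Timp1 and Smpd3 are lower in all Scx-/- samples than in all wild-type samples, Alas2, Slc4a1, Car1, Retnlg and Fabp4 are higher, and Scx has counts in wild-type samples 1 and 2 alone.

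The same list could be followed in the other tissues. Its mean share was lower in Scx-/- than in wild-type samples in 13 of 16 tissues, and the groups did not overlap in 7, all of them lower. Without Sparc the mean was lower in 14 tissues, with groups apart and lower in 5. Samples of one number may come from the same mouse across tissues, so the tissues are not independent of each other. The erythroid list, by contrast, was higher in Scx-/- samples in 12 tissues, with groups apart in 1.

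Collagen chains showed a smaller difference of the same kind. The 13 tested fibrillar and associated collagens took 11.9%, 10.99% and 11.96% of counts in wild-type bone and 10.5%, 9.93% and 8.55% in Scx-/- bone. None passed the study's thresholds in either direction (0 higher, 0 lower), against 1.43% and 2.07% over all genes. In fitted value 10 were lower and 3 higher, and the median log2 fold change was -0.44. Of the 13, 5 lay wholly below the wild-type samples, against 2.33% over all genes.

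The main chain of bone collagen was not among them. Col1a1 measured 52088, 42094 and 55362 CPM in wild-type bone and 67921, 52269 and 30343 CPM in Scx-/- bone, with overlap and a log2 fold change of 0.01 ± 0.19 that became -0.15 under RLE scaling and -0.13 on library totals. Col1a2, its partner in the type I trimer, differed by -0.21 ± 0.19, also with overlap. The chains whose groups were apart were of types III, V, VI and XI. Col3a1 measured 3893, 3989.7 and 3619 CPM in wild-type bone and 3182, 2610.0 and 2826 CPM in Scx-/- bone (-0.42 ± 0.38). For Col5a2, a chain of the type V collagen that starts fibrils, the values were 2309.6, 2331 and 2196 CPM and 1234, 1357 and 1479 CPM (-0.75 ± 0.46), a tight separation within both genotypes. Col6a2, a chain of the microfibrils around cells, had 549.5, 1958 and 630.3 CPM and 409.6, 493 and 455 CPM (-1.21 ± 0.63), with wild-type sample 2 well above the others. Col5a2 and Col6a2 were chosen after their values were seen.

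Tendon and ligament genes were lower in part. The 19 tested genes took 0.866%, 1.07% and 1.01% of counts in wild-type bone and 0.703%, 0.649% and 0.648% in Scx-/- bone, without overlap. Of these 0 were higher and 3 lower at the study's thresholds, namely Scx, Thbs4 and Thbs2, against 2.07% lower over all genes. Scx is the gene that the knockout targets, so its own fall is no evidence about the other members. In DESeq2 3 were lower as well, with Tnmd in place of Scx. By fitted value 16 of 19 were lower, and the median was -0.46. Without Scx-/- sample 3, 11 were lower and 8 higher, with a median of -0.19, and without Scx-/- sample 1 the median was -1.17. Whether tendon attached to the bone differed in amount cannot be told from bulk samples, in which fewer cells of a type and less RNA per cell cannot be told apart.

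Thbs4, thrombospondin 4, a matrix protein of tendon and of its junction with muscle, measured 466, 777 and 1484 CPM in wild-type bone and 352, 0 and 152 CPM in Scx-/- bone. The groups did not overlap, Scx-/- sample 2 had no count, and the log2 fold change of -2.40 ± 0.74 stayed past the thresholds without any one sample. Thbs2, a related matrix protein, measured 139.7, 882 and 976 CPM against 231, 164 and 171 CPM. Here wild-type sample 1 lay below the Scx-/- samples, and the log2 fold change of -1.80 ± 0.79 fell short of the thresholds without wild-type sample 2 (-1.50), wild-type sample 3 (-1.42) or Scx-/- sample 2 (-1.70).

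Tnmd, tenomodulin, a membrane protein of mature tendon cells, was chosen after its values were seen. It measured 83.8, 269 and 244 CPM in wild-type bone and 36.8, 43.2 and 0 CPM in Scx-/- bone, which did not overlap (-2.74 ± 1.65). The small proteoglycans of the list, which regulate collagen fibrils, had overlapping groups, including Kera, keratocan, with 7 counts in wild-type and 0 in Scx-/- bone. Dcn, decorin, differed by -0.07 ± 0.44, Fmod, fibromodulin, by -0.07 ± 0.72, Lum, lumican, by -0.12 ± 0.56 and Bgn, biglycan, by -0.36 ± 0.56.

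Genes of osteoblasts and osteocytes as a group overlapped between the genotypes. The 19 tested members took 1.05%, 0.822% and 0.675% of counts in wild-type bone and 0.816%, 0.775% and 0.852% in Scx-/- bone, with 0 higher and 1 lower at the study's thresholds, against 1.43% and 2.07% over all genes (2 lower in DESeq2, with Bglap2, an osteocalcin gene). In fitted value 13 were lower and 6 higher, with a median of -0.33 that ran from -0.81 without wild-type sample 2 to -0.04 without Scx-/- sample 3. Ibsp, a sialoprotein of mineralizing matrix, differed by -0.08 ± 0.49, and Spp1, osteopontin, by 0.22 ± 0.36.

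The member past the thresholds was Smpd3, the sphingomyelinase needed for matrix mineralization. Smpd3 measured 252, 1076 and 488 CPM in wild-type bone and 247, 112 and 171 CPM in Scx-/- bone. All Scx-/- samples lay below the lowest wild-type sample, one of them by a small margin, and the log2 fold change of -1.76 ± 0.83 became -1.03 without wild-type sample 2 and -1.51 without Scx-/- sample 2, in both cases short of the thresholds. Dmp1, a matrix protein of osteocytes chosen after its values were seen, went the other way, with 391, 404 and 142 CPM in wild-type bone and 462, 709 and 550.0 CPM in Scx-/- bone (0.86 ± 0.76).

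The study names 5 genes of osteoblast differentiation as lower in Scx-/- bone, and because it chose them on these samples their direction here is not independent evidence. All 5 had a lower fitted value. In DESeq2 all 5 were past the study's thresholds as lower, against 1.79% over all genes, and in edgeR 3 were, against 2.07%, with 0 higher in either. Each rests on few counts. Cebpb, a transcription factor of osteoblast and fat cell precursors, measured 279, 59.8 and 549 CPM in wild-type bone and 89.3, 8.60 and 37.9 CPM in Scx-/- bone, with overlap (-2.62 ± 1.32). Leaving out wild-type sample 1 or 3 or Scx-/- sample 2 or 3 ended that call, at -2.67, -1.86, -2.14 and -2.52.

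Jag1, a ligand of Notch receptors, had 22 counts in wild-type bone, at 37.3, 29.9 and 325 CPM, and 0 in Scx-/- bone, at least 11.8-fold lower. That level came mostly from wild-type sample 3, and the call ended without it or without Scx-/- sample 1 (-4.89 and -6.29). Bmpr1b, a receptor for bone morphogenetic proteins, had 17 counts against 0, at least 9.10-fold lower, and it was past the thresholds in fits without wild-type sample 1 or 3 but not in the other 4 (-6.04 to -5.06). Gdpd2, a phosphodiesterase of osteoblasts, had 15 counts against 1, a ratio of 24.1 with a 95% exact interval of 3.71 to 1014 that covers counting error only. Vegfa, a growth factor for blood vessels, measured 252, 14.9 and 264 CPM against 52.5, 0 and 19 CPM (-2.76 ± 1.76), with wild-type sample 2 below Scx-/- samples 1 and 3. Gdpd2 and Vegfa passed the thresholds in DESeq2 (-4.85 and -3.05) and not in edgeR.

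The wider list of 43 tested regulators of osteoblast differentiation had 1 gene higher and 3 lower past the thresholds, the lower ones being Cebpb, Jag1 and Bmpr1b again, against 1.43% higher and 2.07% lower over all genes. In DESeq2 0 were higher and 5 lower, with Gdpd2 and Vegfa added. Of its members 24 were lower and 19 higher in fitted value, with a median of -0.66 that became 0.23 without wild-type sample 1, -0.03 without wild-type sample 2 and -1.10 without Scx-/- sample 1. Its share of counts was 0.304%, 0.477% and 0.426% in wild-type bone and 0.264%, 0.241% and 0.270% in Scx-/- bone, without overlap. The list holds all 5 genes that the study names, chosen on these samples, so its lower share is not independent evidence either. The share without those genes was not taken. The higher gene was Ptch1, the receptor of hedgehog ligands, at 0 in wild-type bone and 78.8, 129.6 and 0 CPM in Scx-/- bone, at least 6.23-fold higher. With 30 counts in all, it was not past the thresholds in DESeq2 (4.56), and in edgeR it was no longer past the thresholds when any sample but Scx-/- sample 3 was left out (5.0 to 5.94).

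Osteoclast genes overlapped, with shares of 0.560% to 0.766% in wild-type bone and 0.497% to 0.703% in Scx-/- bone. Of 20 tested, 1 was higher and 0 were lower at the study's thresholds, against 1.43% and 2.07% over all genes, and in DESeq2 0 were higher and 1, Csf1, was lower. The fitted values had no fixed direction: 12 were lower and 8 higher, with a median of -0.30, which became 0.11 without Scx-/- sample 2 or 3 and -1.0 without Scx-/- sample 1. Acp5, tartrate-resistant acid phosphatase, and Ctsk, cathepsin K, the main collagenase of osteoclasts, differed by 0.12 ± 0.45 and -0.50 ± 0.50, with overlap, and the sign of Acp5 turned to -0.05 under RLE scaling and library totals. The called gene was Car2, a carbonic anhydrase that osteoclasts share with red cells, at 447, 239 and 305 CPM and 1056, 1772 and 189.6 CPM (1.6 ± 0.66), where Scx-/- sample 3 lay below every wild-type sample and leaving out Scx-/- sample 2 gave 0.92. Csf1, the growth factor that osteoclast precursors need, was chosen after its values were seen and lay lower without overlap, at 74.5, 164 and 142 CPM against 10.5, 25.9 and 19 CPM (-2.71 ± 2.06).

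None of the 19 tested chondrocyte genes passed the thresholds (0 higher, 0 lower), against 1.43% and 2.07% over all genes. In fitted value 8 were higher and 11 lower, a split that turned to 14 and 5 without wild-type sample 1. Their shares overlapped, at 0.847% to 1.40% and 0.781% to 1.12%. Col2a1, the collagen of cartilage, differed by -0.20 ± 0.34, and Col10a1, the collagen of hypertrophic chondrocytes in the growth plate, by 0.34 ± 0.62. The spread of Col10a1 within wild-type bone, 1509, 299 and 142 CPM, was wider than the difference between the genotypes.

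Erythroid genes were for the most part higher in Scx-/- bone and had the most members past the study's thresholds among the 30 lists. Of 23 tested, 9 were higher and 1 was lower, against 1.43% and 2.07% over all genes. In DESeq2 6 were higher and 1 lower, against 1.13% and 1.79%, with Hbb-b1 gained and Hbb-b2, Hba-a1 and Slc4a1 among those lost. Another count, of genes wholly above the wild-type samples, gave 6, against 2.93% over all genes, and 19 had a higher fitted value, with a median of 1.63 against 0.08 over all genes. Leaving out 1 sample at a time left 4 to 11 higher, with 4 when Scx-/- sample 1 was left out and 11 when wild-type sample 1 was. The list took 4.31%, 1.38% and 2.03% of counts in wild-type bone and 7.89%, 8.64% and 4.08% in Scx-/- bone, where Scx-/- sample 3 lay below wild-type sample 1. The 18 listed genes in the table that are not globins, tested or not, took 0.216%, 0.124% and 0.189% against 0.616%, 0.675% and 0.322%. These shares did not overlap.

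Alas2, which makes the first intermediate of heme in red cell precursors, lies on the X chromosome at 150547375 to 150570638, and its upstream GATA letters are shown above. Alas2 measured 326, 29.9 and 142 CPM in wild-type bone and 1570.2, 1391 and 341 CPM in Scx-/- bone. Scx-/- sample 3 only just exceeded wild-type sample 1, yet the log2 fold change of 2.70 ± 0.70 (from 166 ± 149 CPM to 1101 ± 664 CPM; SD, n = 3) stayed past the thresholds without any one sample. Slc4a1, the anion exchanger of the red cell membrane, measured 466, 299 and 508 CPM in wild-type bone and 1722, 1019.8 and 683 CPM in Scx-/- bone, again without overlap (1.43 ± 0.62). Without wild-type sample 2 or Scx-/- sample 1 it gave 1.23 and 1.08 and was not past the thresholds.

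Of the members past the thresholds, Car1, Cldn13 and Gata1 had at most 1 count in wild-type bone. Car1, the carbonic anhydrase of red cells, had 1 count in wild-type bone and 138 in Scx-/- bone, a ratio of 85.9 with a 95% exact interval of 15.2 to 3419, and it was past the thresholds without any one sample. Cldn13, a claudin of mouse erythroblasts, was at 0 in wild-type bone and at 257, 242 and 114 CPM in Scx-/- bone, at least 17.2-fold higher and likewise stable. Gata1, the master factor of red cell formation, was at 0 in all wild-type samples and in Scx-/- sample 3, and at 273 and 95.1 CPM in the other 2, at least 13.1-fold higher, with calls that ended without wild-type sample 1 (6.59) or Scx-/- sample 1 (5.03).

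Blvrb, a reductase abundant in red cells, measured 130.4, 0 and 61 CPM against 562, 372 and 228 CPM without overlap (2.54 ± 1.13), and was short of the thresholds without wild-type sample 2 (1.96), Scx-/- sample 1 (2.22) or Scx-/- sample 2 (2.58). Klf1, an activator of globin genes chosen after its values were seen, measured 168, 0 and 20.3 CPM against 252, 233 and 379 CPM (2.09 ± 1.27). Outside the list, Glrx5 of iron-sulfur cluster assembly (1.77 ± 0.75) and Epb41 of the membrane skeleton (2.80 ± 1.21), both chosen after their values were seen, were past the thresholds. Both calls ended without Scx-/- sample 2, at 1.52 and 2.22, and without at least 1 other sample.

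Values of single globin symbols are uncertain: the paralogs are near-identical, and the symbols used differed between samples. Summed beta-globin was 41797, 10191 and 17038 CPM in wild-type bone and 87330.0, 81333 and 29319 CPM in Scx-/- bone, and summed alpha-globin was 2216, 986 and 609.9 CPM and 4495, 4209 and 816 CPM, with Scx-/- sample 3 below wild-type sample 1 for both. Among single symbols Hbb-b2 (1.30 ± 0.36) and Hba-a1 (1.36 ± 0.44) were past the thresholds, Hbb-b2 not without wild-type sample 2 (0.94) or Scx-/- sample 1 (0.99) and Hba-a1 not without wild-type sample 3 (0.96). Hbb-b1, the most abundant, differed by 1.65 ± 0.97 and was not past them.

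Hbb-bt was the gene with the lowest adjusted p of the comparison, and its counts came from 1 sample. It had 65 counts in wild-type sample 2 and 0 in the other 5 samples, at least 34.8-fold lower in Scx-/- bone, and without that sample it had no count to test. Hbb-bs likewise reached 3317 CPM in wild-type sample 2, against 0 in wild-type samples 1 and 3 and at most 75.9 CPM in Scx-/- bone. In that sample 287 of 682 beta-globin counts, or 42.1%, went to the pair, and the wild-type samples numbered 2 of the other 15 tissues showed the same pattern, which was not seen in Scx-/- samples of that number. The strain of the mice is not given, and what sets these samples apart was not tested.

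**Figure D3:**
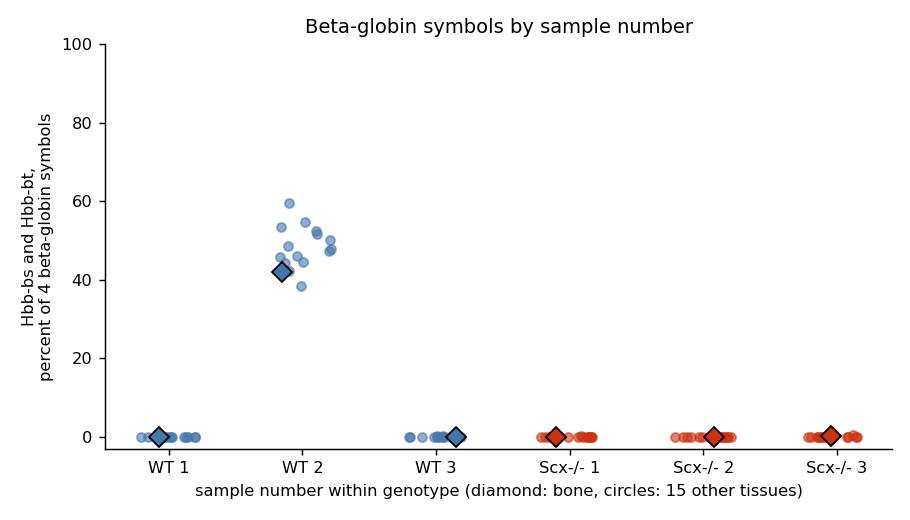
Share of beta-globin counts given to Hbb-bs and Hbb-bt (percent) in the samples of all 16 tissues, by genotype and sample number. Wild-type samples numbered 2 lie at 38.5% to 59.6%, and all others lie at or below 0.594%.

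Neutrophils are made in the marrow as well. Of 21 neutrophil genes 2 were higher and 0 lower at the study's thresholds, against 1.43% and 2.07% over all genes (1 higher in DESeq2, Retnlg), and the shares overlapped, at 0.142% to 0.654% and 0.452% to 0.761%. By fitted value 17 were higher and 4 lower, with a median of 0.74, but 11 were higher and 8 lower without Scx-/- sample 1, with a median of 0.04, and without wild-type sample 1 the median was 2.42. Retnlg, a secreted protein of neutrophils, measured 46.6, 179 and 0 CPM in wild-type bone and 767, 398 and 284 CPM in Scx-/- bone, without overlap (2.65 ± 1.01, and 2.23 without Scx-/- sample 1, short of the thresholds). Stfa2, a protease inhibitor of granulocytes, was at 0 in wild-type bone and at 47.3, 190.1 and 0 CPM in Scx-/- bone, at least 6.44-fold higher, in fits that kept all samples or left out Scx-/- sample 1 or 3. The most abundant members, S100a8 and S100a9, differed by 0.47 ± 0.51 and 0.64 ± 0.58, with overlap.

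In the other blood lineages few members passed. Of 17 B lymphoid genes 1 was higher and 0 lower, against 1.43% and 2.07% over all genes. The gene was Dntt, the enzyme that adds nucleotides to antigen receptor joints, at 0 in wild-type bone and 5.30, 0 and 246 CPM in Scx-/- bone, at least 2.91-fold higher from 14 counts, 13 of them in Scx-/- sample 3. That call was not made in DESeq2 (5.11) and ended in 4 of the 6 fits without a sample, at 1.76 without Scx-/- sample 3 and at 5.96, 6.09 and 6.13 without wild-type sample 1, 2 or 3. None of 7 T and NK cell genes, 13 monocyte and macrophage genes and 5 megakaryocyte and platelet genes was past the thresholds in either direction. Monocyte and macrophage genes took 0.0884%, 0.0602% and 0.0721% of counts in wild-type bone and 0.0582%, 0.0515% and 0.0402% in Scx-/- bone, which did not overlap.

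Adipocyte genes took a larger share of Scx-/- bone, 0.312%, 0.220% and 0.400% against 0.119%, 0.172% and 0.212%, without overlap. Without Lpl, the lipase that is its most abundant member, the shares were 0.200%, 0.178% and 0.308% against 0.0693%, 0.10% and 0.180%, and they overlapped. Of 14 tested, 1 was higher and 1 lower past the thresholds, against 1.43% and 2.07% over all genes (2 and 1 in DESeq2, with Adipoq), and 10 had a higher fitted value, with a median of 0.82 that became 1.96 and 2.74 without wild-type sample 1 and 3. Fabp4, the fatty acid binding protein of fat cells and of capillary endothelium, measured 37.3, 105 and 40.7 CPM in wild-type bone and 609, 501 and 436 CPM in Scx-/- bone. All 3 Scx-/- samples lay far above the highest wild-type sample, and the log2 fold change of 3.07 ± 1.03 (60.8 ± 37.9 CPM to 516 ± 87.4 CPM; SD, n = 3) stayed past the thresholds without any one sample. Adipoq, the fat cell hormone adiponectin, chosen after its values were seen, had 1 count in wild-type bone and 32 in Scx-/- bone, a ratio of 19.9 with a 95% exact interval of 3.33 to 811. Against these, Cidec, a lipid droplet protein, had 325 CPM in wild-type sample 3 and 0 elsewhere, at least 8.56-fold lower, and was short of the thresholds without Scx-/- sample 1 (-6.01) or 2 (-6.33).

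Genes of marrow stroma and pericytes took 0.192%, 0.196% and 0.227% of counts in wild-type bone and 0.133%, 0.0724% and 0.118% in Scx-/- bone, without overlap. Of 15 tested, 0 were higher and 1 was lower past the thresholds, against 1.43% and 2.07% over all genes (2 lower in DESeq2, with Ly6a), and 12 had a lower fitted value, with a median of -0.83 that became -1.98 without Scx-/- sample 1. The called gene, Ebf3, a factor of marrow stromal cells, had counts in wild-type sample 2 alone (269 CPM) and was at least 9.63-fold lower (short of the thresholds without Scx-/- sample 1 or 2, at -5.77 and -6.09), while Cxcl12, the chemokine that retains blood stem cells, differed by -0.54 ± 0.89 with overlap. Endothelial genes went the other way in share, 0.0433%, 0.0703% and 0.0446% against 0.0732%, 0.0748% and 0.0710%, with 0 of 15 past the thresholds in either direction, although in DESeq2 Emcn, an endothelial sialomucin, was lower. Without Esam, an adhesion molecule, the endothelial shares overlapped.

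Skeletal muscle genes made up 3.61%, 8.47% and 9.87% of counts in wild-type bone and 6.44%, 8.79% and 12.3% in Scx-/- bone, so that muscle transcripts were present in all 6 samples. None of 28 tested was past the thresholds (0 higher, 0 lower), against 1.43% and 2.07% over all genes. By fitted value 20 were higher and 8 lower, with a median of 0.28. Without wild-type sample 1 the split was 14 to 14 and the median 0.01, and without wild-type sample 3 or Scx-/- sample 1 the median was 0.67 and 0.47. Acta1, skeletal actin, measured 8046, 19515 and 25048 CPM in wild-type bone and 22576, 24518 and 29319 CPM in Scx-/- bone, with wild-type sample 1 the lowest (0.54 ± 0.23). Ckm, muscle creatine kinase, showed the same order at the low end (0.61 ± 0.29). The part of the muscle share in the collagen, tendon and erythroid differences was not tested. Leaving muscle fibre and erythroid genes out of the TMM factors gave 435 genes at the study's thresholds in place of 433.

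**Figure D4:**
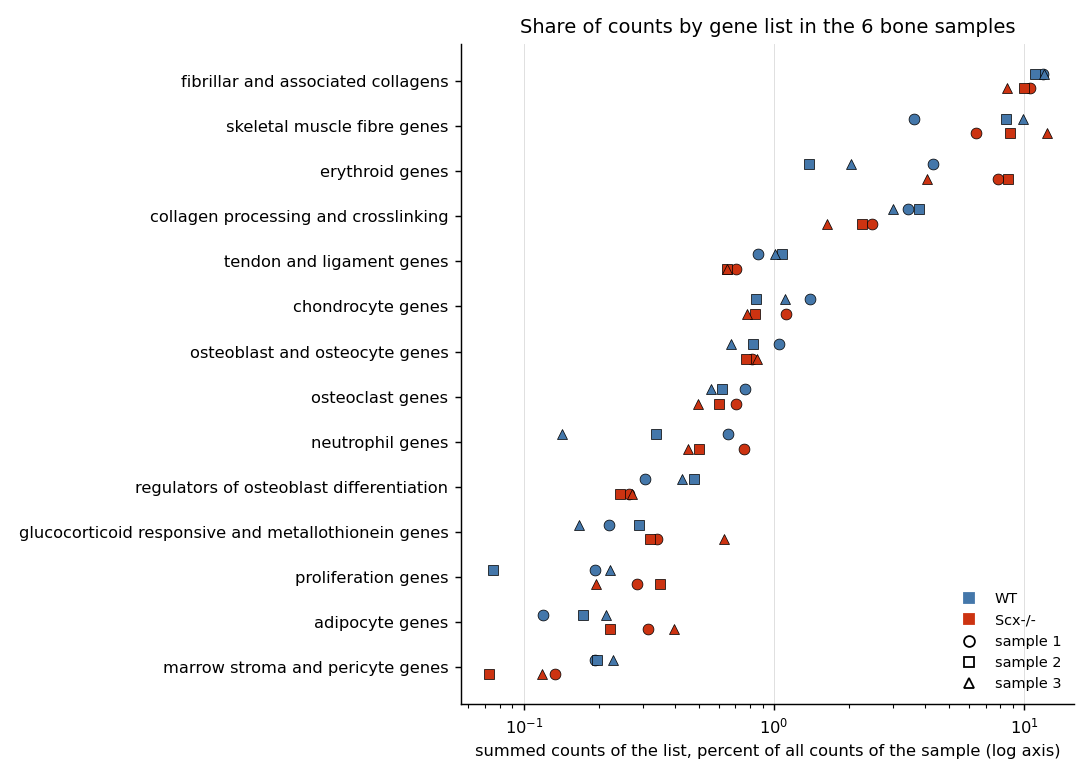
Share of the total count (percent) taken by each gene list in the 6 bone samples, by genotype. The collagen processing and tendon lists are lower and the adipocyte list is higher in all Scx-/- samples, while the erythroid and muscle lists overlap between the genotypes.

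Among lists of cell types outside the skeleton, 0 of 6 keratinocyte, 2 pancreatic acinar, 9 hepatocyte and 11 neuronal genes were past the thresholds in either direction. Over all genes 1.43% were past them as higher and 2.07% as lower. Proliferation genes included 0 past the thresholds in either direction of 28 tested (1 higher in DESeq2, Mcm5), with 20 higher and 8 lower in fitted value (16 and 11 without Scx-/- sample 1, which lowered the median from 1.44 to 0.81) and 5 wholly above the wild-type samples, against 2.93% over all genes. One of these, Birc5, a survival protein of dividing cells, measured 74.5, 0 and 163 CPM against 415, 354 and 246 CPM (2.12 ± 1.16) and was chosen after its values were seen. The shares of the list, 0.0753% to 0.221% and 0.194% to 0.349%, overlapped.

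Glucocorticoid responsive and metallothionein genes took 0.219%, 0.289% and 0.165% of counts in wild-type bone and 0.342%, 0.320% and 0.629% in Scx-/- bone, which did not overlap. Of 14 tested, 1 was higher and 0 lower past the thresholds, against 1.43% and 2.07% over all genes. By fitted value 12 of the 14 were higher, with a median of 0.89, and 4 lay wholly above the wild-type samples, against 2.93%. The called gene was Txnip, an inhibitor of thioredoxin that glucose induces, at 102, 404 and 81.3 CPM against 509, 674 and 816 CPM (1.76 ± 0.79). It was short of the thresholds without wild-type sample 1 or 3 or Scx-/- sample 2 or 3, at 1.43, 1.41, 1.75 and 1.58. Mt2, a metal-binding protein chosen after its values were seen, was likewise apart, at 196, 239 and 122 CPM against 546, 743 and 398 CPM (1.59 ± 0.84).

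Among 23 hypoxia and glycolysis genes 0 were higher and 1 lower, against 1.43% and 2.07% over all genes, and 3 were lower in DESeq2, with Vegfa and P4ha1. The gene called by both was Pfkp, a phosphofructokinase, with 30 counts against 1 and a ratio of 48.2 (95% exact interval 8.01 to 1965), whose call ended without wild-type sample 2 (-4.13) or Scx-/- sample 2 (-4.85). Among 22 immediate early and heat shock genes 1 was higher and 0 lower, against the same background, namely Myc, at 0 in wild-type bone and 78.8, 138 and 0 CPM in Scx-/- bone, at least 6.44-fold higher but not past the thresholds in DESeq2 (4.62) and past them in a single fit out of the 6 that left out a sample, that without Scx-/- sample 3. None of 15 genes of the IGF and growth axis, 10 limb position genes, 5 sex-linked genes and the 3 Y-linked genes among them was past the thresholds in either direction.

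Genes with no count in one genotype supplied the largest fitted values. Of the 12344 genes tested, 54 higher and 33 lower ones were past the study's thresholds with groups apart and a mean of at least 50 CPM. The rule for named genes took the 15 largest of these in each direction. Msmp, Nifk and Pisd were at 0 in all wild-type samples. Msmp reached 110.3, 207 and 436 CPM in Scx-/- bone, at least 14.1-fold higher. Nifk, which encodes a nucleolar protein, reached 63, 147 and 303 CPM, at least 9.34-fold higher. Pisd, which makes phosphatidylethanolamine in mitochondria, reached 21, 182 and 303 CPM, at least 8.51-fold higher. In the other direction Ccnf, a cyclin, was at 121, 89.7 and 244 CPM in wild-type bone and at 0 in Scx-/- bone, at least 16.6-fold lower. Rif1, a factor of replication timing, was at 46.6, 14.9 and 407 CPM in wild-type bone and at 0 in Scx-/- bone, at least 13.9-fold lower. Rif1 was not past the thresholds without wild-type sample 3 (-4.78).

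Among the 46 lower genes with counts in both genotypes, Timp1 and Kap are described because of their level, a choice made after their values were seen. Timp1, an inhibitor of matrix metalloproteinases on the X chromosome at 20870166 to 20874735, measured 1127, 852 and 589.6 CPM in wild-type bone and 147, 424 and 75.9 CPM in Scx-/- bone. The groups did not overlap and the log2 fold change of -1.97 ± 0.73 held without any one sample. Kap, the kidney androgen-regulated protein, measured 307, 897 and 691 CPM in wild-type bone and 52.5, 60.5 and 94.8 CPM in Scx-/- bone, also apart and also stable (-3.20 ± 0.93). As Kap is a kidney gene, its level in kidney stands beside it: on raw totals it was 14022 to 24811 CPM in wild-type and 7561 to 10846 CPM in Scx-/- kidney, and the other kidney genes Slc34a1 and Umod were at 60.7 to 184 CPM in wild-type and 16.1 to 56.3 CPM in Scx-/- bone. Their part in the difference was not tested.

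The genotype difference in bone was then set against that in cartilage and in muscle of the same series, in 1 fit over 18 samples and 6399 genes. It differed from that in muscle for 5 genes at an adjusted p under 0.05 (0.0781%) and from that in cartilage for 1 gene (0.0156%). In the quasi-likelihood test of edgeR for the interaction, after Benjamini-Hochberg adjustment, the log2 difference of bone minus muscle was 4.21 ± 0.98 (SE) for Fmod at an adjusted p of 0.029. Fmod was lower in Scx-/- muscle, at 2.90, 8.87 and 7.71 CPM against 18.8, 44.8 and 302 CPM, and near-equal in bone.

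For Myl2, the slow and cardiac myosin light chain, the difference was 4.07 ± 0.92 with an adjusted p of 0.029 in the quasi-likelihood test of edgeR (Benjamini-Hochberg), and its muscle values were 621, 206 and 957 CPM in wild-type and 94.3, 36.9 and 23.1 CPM in Scx-/- samples. Its bone values, 139.7, 209 and 508 CPM and 136, 432 and 607 CPM, overlapped. Tnnt1, slow troponin T, and Mapk12, a kinase of muscle, differed by 5.10 ± 1.18 and 9.18 ± 2.20 at adjusted p-values of 0.029 and 0.040 in the quasi-likelihood test of edgeR (Benjamini-Hochberg), on 3 against 32 and 0 against 21 counts in bone. Ucp1, the uncoupling protein of brown fat, had 10 counts in bone, all in Scx-/- sample 1, and in muscle all its counts lay in wild-type samples 2 and 3. With cartilage the one gene was Actc1, cardiac actin, whose difference was 2.73 ± 0.56 at an adjusted p of 0.008 in the quasi-likelihood test of edgeR (Benjamini-Hochberg). It measured 267, 333 and 202 CPM in the cartilage libraries labelled wild type and 29.8, 24.8 and 51.2 CPM in those labelled Scx-/-, and overlapped in bone. Of these counts, 5 for muscle became 0 with the sample number within genotype as a factor, and leaving out 1 of the 18 samples gave 0 to 7 for muscle and 0 to 3 for cartilage. For muscle, the count was 0 without wild-type bone sample 1, wild-type cartilage sample 3 or Scx-/- muscle sample 1, and 7 without wild-type muscle sample 1. It was 4 without Scx-/- bone sample 3 or wild-type muscle sample 2, 2 without any other bone sample and 1 without any other cartilage or muscle sample. For cartilage, the count was 0 without wild-type bone sample 1, Scx-/- bone sample 3, wild-type cartilage sample 2 or Scx-/- cartilage sample 1 or 2. It was 3 without wild-type bone sample 2, 2 without wild-type muscle sample 1 and 1 without any other sample.

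None of the genes that led the collagen and erythroid groups had a difference past that test. The log2 fold change of Pcolce was -2.00 ± 0.60 in bone, -0.62 ± 0.47 in cartilage and -0.58 ± 0.62 in muscle. Serpinh1 was lower in all 3, at -1.11 ± 0.37 in cartilage and -1.27 ± 0.62 in muscle. Alas2 was higher in all 3, at 1.46 ± 0.55 in cartilage and 3.03 ± 0.91 in muscle. Fabp4 was higher in bone alone by value, with -0.64 ± 0.43 in cartilage and -0.40 ± 0.53 in muscle, and its difference of 3.73 ± 0.92 from cartilage and 3.50 ± 0.91 from muscle had adjusted p-values of 0.147 and 0.134 in the quasi-likelihood test of edgeR (Benjamini-Hochberg). Col1a1, near 0 in bone, was at -0.91 ± 0.68 and -1.0 ± 0.37. Scx did not follow the genotype labels in cartilage. It had 0, 7 and 1 counts in the cartilage libraries labelled wild type and 9, 0 and 0 in those labelled Scx-/-, so that the highest count lay in a library labelled Scx-/-, whereas in muscle it had 0, 11 and 7 counts against 0, 0 and 0. The cartilage library labelled wild-type sample 1 held 29 Y-linked counts and 3 of Xist, and that labelled Scx-/- sample 2 held 3 and 116, in both cases opposite to their number in most other tissues and on opposite sides of the genotype comparison. The library labelled Scx-/- sample 3 held both kinds, 60 and 20. All cartilage directions above rest on these labels, and the part of this in the cartilage values was not tested.

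**Figure D5:**
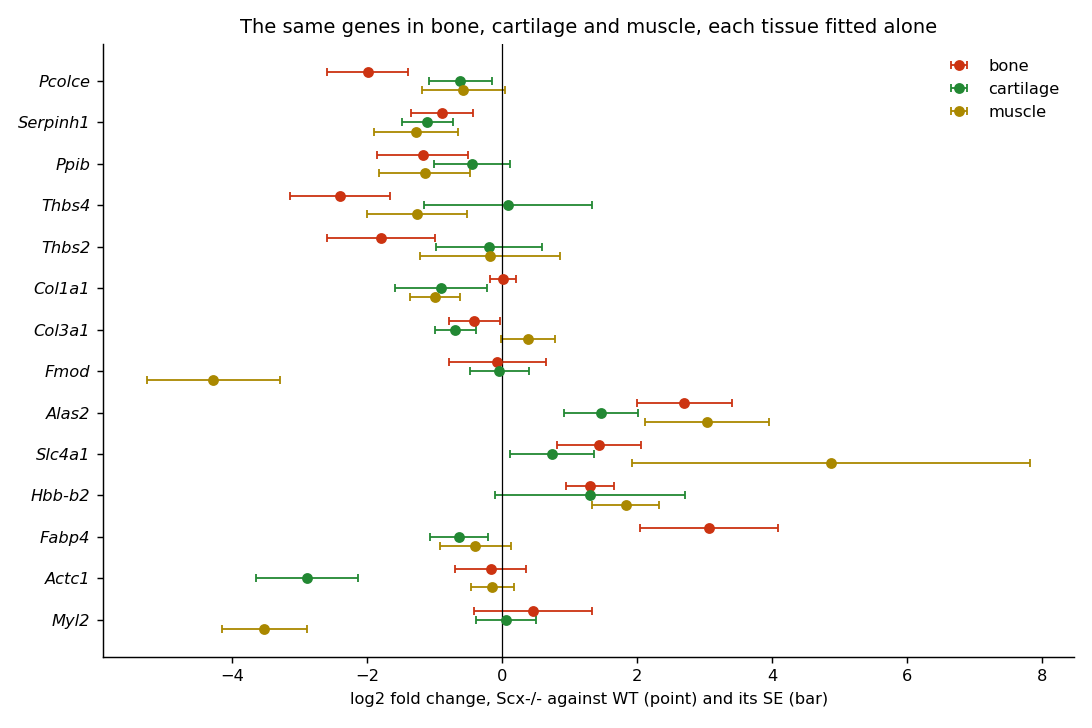
Fitted log2 fold change of Scx-/- against wild-type samples (point) and its SE (bar) for 14 genes in bone, cartilage and muscle, each tissue fitted alone. Serpinh1 lies below 0 and Alas2 above 0 in all 3 tissues, Fabp4 lies above 0 in bone alone, and Fmod and Myl2 lie far below 0 in muscle and Actc1 in cartilage.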

How the data were processed

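The 6 bone samples were part of 96 samples, 3 per genotype in each of 16 tissues. According to the study, the authors barcoded the RNA of each sample, pooled the samples and sequenced 3′-enriched libraries. The record of the series describes a Smart-seq2-based method. The authors aligned the reads to mm10 using Bowtie2 with its default settings and counted genes using HTSeq. Whole-number counts per gene symbol without normalization are what the authors deposited. The sources used here do not give tool versions, annotation, strand setting, molecular identifiers or the mouse behind each sample. No column of the table was left without a sample.

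From the counts, genes at 0 in all 6 samples (29231 of 41575) were removed, and edgeR 4.0.16 in R 4.3.3 was fitted to bone alone with TMM factors, robust glmQLFit and glmQLFTest, and Benjamini-Hochberg adjustment. SE is the absolute log2 fold change divided by the square root of the F statistic. Genes were also called at the thresholds of the study, a change above 2-fold and an unadjusted p under 0.05, which serves as a threshold only. The study used DESeq2, which was run as an alternative. The difference between tissues was the interaction term over genes passing filterByExpr. Total counts ran from 42272 to 240564, and the common dispersion was 1.85, which limits the precision of single genes. The script was tested on simulated data.

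Named genes were Scx, the 5 that the study names for bone, the 15 largest differences in each direction past the study's thresholds with groups apart and a mean of at least 50 CPM, the 3 most abundant and all called members of each of 30 lists, and those past the test between tissues. Some genes this covers are not reported here, and genes outside it are marked. The genes and lists were chosen with earlier results of these data known, and no list was tested as a set. A group at 0 is given as a bound against 3 counts, and 1 to 3 counts as a ratio with an exact 95% interval, both over the group. Coordinates are from GENCODE vM21 on GRCm38, which held 191 of 194 named genes. Alternatives were RLE scaling, library totals, TMM without muscle and erythroid genes, filterByExpr, a minimum of 10 counts, the replicate number as a block, DESeq2 1.42.0, thinning to 42272 counts, a joint fit over 32 groups and leaving out each sample. Fits restricted to genes with counts in both genotypes, list values under other scalings, list shares without the most abundant member, the sample number within genotype, and the fit between tissues without each muscle and cartilage sample were added after the data were seen.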

Additional observations from a re-analysis of the deposited data

Results flagged for a closer look

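For 6 genes the genotype effect in bone differed from that in another tissue by the interaction term. Against muscle, the log2 difference (bone minus muscle) was 13.44 ± 2.83 (SE) for Ucp1 at an adjusted p of 0.013, in the quasi-likelihood test of edgeR (Benjamini-Hochberg over 6399 genes). For Ucp1 it rested on 10 counts in 1 Scx-/- bone sample, and on 237 counts in wild-type samples 2 and 3 of muscle. The difference was 4.07 ± 0.92 for Myl2, 5.10 ± 1.18 for Tnnt1 and 4.21 ± 0.98 for Fmod, each with an adjusted p of 0.029 by the same edgeR test, and all 3 of these muscle effects were lower values in Scx-/- muscle. Mapk12 differed by 9.18 ± 2.20, with an adjusted p of 0.040 in that edgeR test, on 0 counts in wild-type bone. Against cartilage, Actc1 differed by 2.73 ± 0.56, with an adjusted p of 0.008 in edgeR's test, and 1 cartilage library labelled Scx-/- held 9 counts of Scx. Leaving out 1 of the 18 samples gave 0 to 7 genes against muscle and 0 to 3 against cartilage. Muscle wild-type sample 1 held few counts of these genes, and the part of depth in the muscle differences was not tested.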

How the results depend on the processing

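The count of genes at an adjusted p under 0.05, 0 in edgeR, was 1 in DESeq2 (Hbb-bt) and 0 to 5 when 1 sample was left out: 5 without wild-type sample 1 (Alas2, Hba-a1, Hbb-b2, Hbb-bt and a ribosomal RNA symbol), 1 without wild-type sample 3 and 2 without Scx-/- sample 3 (Alas2 and Hbb-b2). The 433 genes at the study's thresholds became 53 with filterByExpr, which tests 1433 genes, 86 with at least 1 count in each genotype, 84 with the replicate block, 887 in the joint fit, and 163 to 292 without 1 sample. RLE scaling, library totals, a minimum of 10 counts, DESeq2 and thinning gave 497, 521, 505, 361 and 292. Scx (-5.74) was no longer past the thresholds with the replicate block (-5.64), DESeq2 (-5.32) or thinning (-4.48), and ran from -6.42 to -3.67 without 1 sample. filterByExpr removed Scx, so that it gave no value. The difference to muscle, 5 genes, became 1 with a minimum of 10 counts, 1 with the replicate block, 0 with the sample number within genotype, and 0 to 7 without 1 of the 18 samples, and that to cartilage, 1 gene, ran from 0 to 3. The cause of these changes was not tested.

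The deviations of same-numbered samples correlated at 0.04, -0.01 and 0.01 over 3554 genes, and not every sample correlated best with its own number. The levels of samples of one genotype correlated with each other at only 0.35 to 0.44. Against that spread the check does not decide whether the replicate numbers pair the samples.

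With the replicate block the osteoblast and osteocyte list turned from 6 higher and 13 lower genes to 11 and 8 (median 0.09). Signs turned for genes near 0 and also for Hbb-bs, which was at -5.64 with all samples. Col1a1 (0.01) was at -0.15 under RLE, -0.13 on library totals, -0.062 with filterByExpr, -0.014 with a minimum of 10 counts, -0.052 with the replicate block, -0.15 in DESeq2, -0.067 when thinned, and -0.20 to 0.27 without 1 sample. Acp5 (0.12) was at -0.054 under RLE, -0.051 on library totals and -0.053 in DESeq2, and -0.29 to 0.42 without 1 sample. With the replicate block Ibsp (-0.08) was at 0.16 and Actc1 (-0.17) at 0.10, and without 1 sample they ran from -0.43 to 0.66 and -0.61 to 0.46. In the fits without 1 sample alone, Fmod ran from -0.44 to 0.22, Dcn from -0.14 to 0.072, Spp1 from -0.10 to 0.51, Col2a1 from -0.58 to 0.092, Col10a1 from -0.13 to 1.90 and Hbb-bs from -7.90 to 4.52. Of the 37 printed genes other than Scx past the study's thresholds, 12 stayed past them in all 6 fits without a sample and in every alternative that fitted them: Pcolce, Thbs4, Alas2, Car1, Cldn13, Fabp4, Timp1, Kap, Msmp, Nifk, Pisd and Ccnf.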
